A study of Mus musculus with 18 samples.

Results

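The genes described here encode glutamate receptors and glutamate transporters: the AMPA, kainate, NMDA, metabotropic and delta receptor subunits, 1 NMDA receptor-associated protein, and the plasma membrane and vesicular transporters. They were chosen by name, as 30 gene symbols, and each gene was measured by averaging the probe sets that the platform annotation assigns to its symbol alone. Of the 30, 28 had such a probe set (60 probe sets in all) among the 18194 genes of the arrays, and Grin1 and Grm6 had none. RNA came from RPE/choroid of male C57BL6/J mice, given as 2 months old in the sample labels and as 6 to 8 weeks old in the study's methods, with no transgene or deletion. Eyes received dexamethasone (Dex, 10 μg), triamcinolone acetonide (TAA, 25 μg) or their vehicle alone, a balanced salt solution (BSS), in 1 μL into the vitreous, and tissue was collected 7 or 30 days later. For each of the 6 groups the study's methods give 4 animals. Of 4 samples, the 3 of best RNA quality were put on arrays, and the number of animals per sample is not stated. All 18 arrays come from injected eyes and none from an untouched eye. The retina was removed at dissection, and both steroids are synthetic glucocorticoids given at unequal doses.

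Glutamate is the main excitatory transmitter of the retina, released there by photoreceptors and bipolar cells. AMPA, kainate and NMDA receptors are ion channels built of 4 subunits that open when glutamate binds, whereas metabotropic receptors act through G proteins, and transporters either clear glutamate from outside the cell or load it into synaptic vesicles. In the RPE, glutamate uptake and glutamate receptors have been described, and glucocorticoids act through a nuclear receptor that binds DNA at paired half-sites.

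Of the 28 genes, 18 had a promoter entry in RefSeq (GRCm38.p6), and these were searched, over the 250 bases before the gene start and on both strands, for the glucocorticoid receptor half-site pair ACANNNTGT and for the E-box CACGTG, a site that circadian clock factors bind. The half-site pair was found in 3 of the 18, against 6.76% of all 27025 genes with an entry and 5.84% of all 32851 promoters. The E-box was found in 0 of the 18, against 6.86% of all genes. Among the 3 is Grin2c, whose values with steroid are given below, so the 3 stretches are shown with the 9 matched letters in capitals, 5′ to 3′ on the strand of the gene. A match describes these letters and not a bound site.
Grin2c (chr11:115267329-115267357, minus strand, match from 104 bases before the start): agctaggagcACAGGCTGTcagggagggg
Grin3b (chr10:79970680-79970708, plus strand, match from 34 bases before the start): cccaggctgcACACAGTGTtgtactggcc
Slc1a2 (chr2:102706337-102706365, plus strand, match from 91 bases before the start): cctcaataggACAGCATGTgacttctttg

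The deposited values are log2 intensities after subtraction of the probe set's own median across all 18 arrays. They hold no expression level, so a value of 0.24 means 0.24 log2 units above the median array of that gene, and no gene can be called higher than another. The RPE identity of the tissue could not be checked by level for the same reason. The study first left out probe sets of weak raw signal, and no such filter was applied here. Whether a gene was detected above background was therefore not checked. In whole tissue, fewer cells of a type and less RNA per cell cannot be told apart. A score made of 24 of 26 rod photoreceptor genes (their mean centred log2 value) split the arrays into 10 at or below 0.06 and 8 at or above 1.05. It ranged from -1.02 to -0.47 in BSS, -0.27 to 1.29 in Dex and -1.12 to 1.65 in TAA arrays at day 7, and from -0.40 to 3.04, -1.06 to 2.80 and -1.11 to 2.58 in those groups at day 30. The 8 arrays were Dex replicates 1 and 2 and TAA replicate 3 at day 7, and BSS replicates 1 and 3, Dex replicate 3 and TAA replicates 1 and 2 at day 30.

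The question put to the data was how each steroid, compared with BSS, altered glutamate receptor and transporter transcripts at each day. None of the 28 genes passed the adjusted p of 0.05 of the limma fit over all 18194 genes in any comparison, the smallest adjusted p being 0.145 for Grin3a between the days. Of all genes, 0.429% passed between the days, 0.0495% in the F-test over the 6 groups, 0.0055% with TAA at day 7 and 0% in the other comparisons. Counts of genes below therefore use the unadjusted p, and single genes are given with the 95% interval of their difference in the fit. At day 7, 3 of the 28 genes had an unadjusted p of 0.05 or less with Dex (1.83% of all genes) and 3 with TAA (4.23% of all genes), and these were the same 3 genes, Grik1, Grin2c and Grm2. At day 30 there were 5 with Dex (4.7% of all genes), namely Grik1, Grik4, Grm7, Slc17a6 and Slc17a7, and 2 with TAA (2.57% of all genes), Grik1 and Grm7. With single arrays left out, the count with TAA at day 7 was 0 without TAA replicate 2 and 1 without BSS replicate 1 or TAA replicate 3. At day 30 the count with Dex was 11 without BSS replicate 2, 9 without Dex replicate 3 and 3 without BSS replicate 1, BSS replicate 3 or Dex replicate 1. The count with TAA at day 30 was 8 without BSS replicate 2 and 0 without BSS replicate 1 or TAA replicate 1. The share of all genes was not counted in these fits with an array left out, so the shares above do not apply to them. Dex and TAA were each compared with the same 3 BSS arrays of the day, so the overlap of the steroids' lists is no separate evidence.

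With Dex at day 7 the 3 arrays lay wholly below the 3 BSS arrays in 2 members (4.84% of all genes), Grik1 and Grin2c, and wholly above in 2 members (4.4%), Grm2 and Grm7. With TAA at day 7 they lay wholly below in 4 (6.54%), Grik1, Grin2c, Grin3b and Grm7, and wholly above in 2 (4.91%), Grina and Grm2. At day 30 the arrays with Dex lay wholly below BSS in 2 members (1.9%), Grik1 and Grm7, and wholly above in 0 (2.34%), and those with TAA lay wholly below in 1 (2.55%), Grm7, and wholly above in 1 (3.02%), Grik4. With the study's own fold threshold of 1.5 added to that p, 2 members were lower with Dex at day 30 (0.225% of all genes), Grik1 and Slc17a6. The median log2 difference of the 28 from BSS was 0.02 with Dex and 0.02 with TAA at day 7, then -0.08 with Dex and -0.05 with TAA at day 30, where 8 and 10 of the 28 lay above 0. Over all genes 53.7% lay above 0 with Dex and 54.3% with TAA at day 30.

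**Figure D1:**
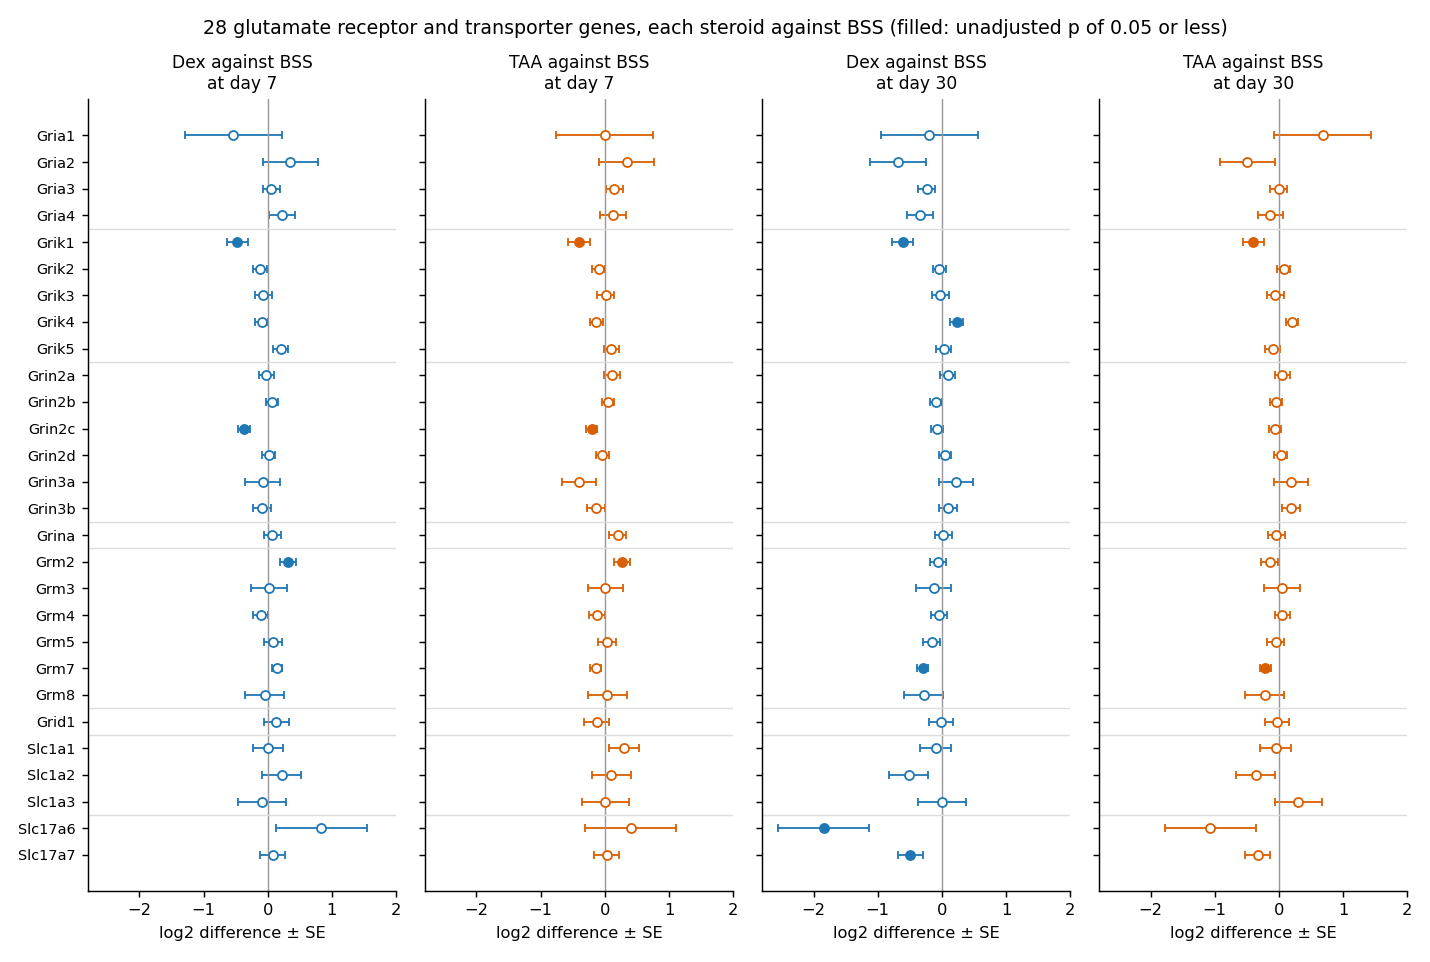
Log2 difference from BSS (horizontal axis, points, with bars of ± 1 SE) for each of the 28 genes, ordered by class, in the 4 comparisons of Dex and TAA with BSS at day 7 and day 30. Filled points have an unadjusted limma p of 0.05 or less, and Grik1 is filled and below 0 in each of the 4 comparisons.

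Kainate receptors were led by Grik1, which encodes the GluK1 subunit. Its centred log2 values at day 7 were 0.24, 0.43 and 0.30 in BSS, -0.11, -0.14 and -0.21 in Dex and -0.03, -0.08 and -0.13 in TAA arrays. The day 30 values were 0.87, 0.28 and -0.05 in BSS, -0.06, -0.39 and -0.29 in Dex and -0.19, -0.03 and 0.13 in TAA arrays. Every Dex array lay below every BSS array of its day and every TAA array below every BSS array at day 7, while TAA and BSS overlapped at day 30, where BSS replicate 1 stood far above the other arrays. The log2 difference from BSS was -0.47 ± 0.17 (SE, n = 3 and 3) with Dex at day 7 (95% interval -0.83 to -0.11, limma adjusted p = 0.9997) and -0.61 ± 0.17 with Dex at day 30 (95% interval -0.97 to -0.25, limma adjusted p = 0.934). With TAA it was -0.40 at day 7 (95% interval -0.76 to -0.04, limma adjusted p = 0.991) and -0.40 at day 30 (95% interval -0.76 to -0.04, limma adjusted p = 0.9995). Among the 10 arrays of low rod score the Grik1 differences were -0.53 and -0.38 at day 7 and -0.51 and -0.15 at day 30 for Dex and TAA. These arrays hold 1 Dex array at day 7, and 1 BSS and 1 TAA array at day 30, so the last value compares single arrays. Without BSS replicate 1 of day 30 the Grik1 differences were -0.36 with Dex and -0.15 with TAA at that day.

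Grik4 encodes GluK4, a subunit that forms channels only together with other kainate subunits, and was read by 1 probe set. At day 7 its values were 0.20, 0.01 and -0.05 in BSS, 0.07, -0.07 and -0.12 in Dex and 0.02, -0.01 and -0.23 in TAA arrays, with all groups overlapping. Those of day 30 were -0.06, -0.19 and -0.06 in BSS, 0.22, 0.23 and -0.07 in Dex and 0.14, 0.11 and 0.06 in TAA arrays. All 3 TAA arrays and 2 of the 3 Dex arrays then lay above the BSS arrays. The log2 difference at day 30 was 0.23 ± 0.10 (SE) with Dex (95% interval 0.02 to 0.44, limma adjusted p = 0.934) and 0.21 with TAA (95% interval -0.00 to 0.41, limma adjusted p = 0.9995). The difference between the days' effects was 0.32 for Dex (95% interval 0.03 to 0.62) and 0.33 for TAA (95% interval 0.04 to 0.63). Grik2, Grik3 and Grik5, the remaining kainate subunits, passed no test at an unadjusted p of 0.05.

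NMDA receptors include Grin2c, which encodes the GluN2C subunit and was read by 1 probe set. At day 7 its values were 0.36, 0.18 and 0.20 in BSS, -0.01, -0.31 and -0.04 in Dex and 0.16, -0.05 and 0.01 in TAA arrays. For day 30 the values were 0.05, 0.15 and -0.07 in BSS, 0.03, -0.03 and -0.09 in Dex and 0.00, -0.04 and -0.00 in TAA arrays. All 6 steroid arrays of day 7 lay below the BSS arrays, and at day 30 the 3 groups overlapped. The log2 difference at day 7 was -0.37 ± 0.09 (SE, n = 3 and 3) with Dex (95% interval -0.56 to -0.17, limma adjusted p = 0.9997) and -0.20 with TAA (95% interval -0.40 to -0.01, limma adjusted p = 0.991). At day 30 it was -0.07 with Dex and -0.06 with TAA (95% intervals -0.27 to 0.12 and -0.25 to 0.13). The effect of Dex at day 30 minus that at day 7 was 0.29 ± 0.13 (95% interval 0.02 to 0.56, limma adjusted p = 0.9998).

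Grina, whose product was named as a protein associated with NMDA receptors and is not a channel subunit, was not past an unadjusted p of 0.05 in any comparison of a steroid with BSS. Its values at day 7 were -0.17, -0.20 and -0.26 in BSS, -0.11, -0.04 and -0.25 in Dex and -0.07, -0.03 and 0.07 in TAA arrays. The arrays of day 30 gave 0.23, -0.16 and 0.16 in BSS, -0.16, 0.09 and 0.37 in Dex and 0.17, 0.12 and -0.18 in TAA arrays. The TAA arrays of day 7 all lay above the BSS arrays, with a log2 difference of 0.20 (95% interval -0.08 to 0.48), and the groups overlapped at day 30. Grin3b, which encodes the glycine-binding GluN3B, also had all TAA arrays on one side at day 7, below BSS, with a log2 difference of -0.14 (95% interval -0.43 to 0.16).

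Among metabotropic receptors, Grm2 and Grm7 reached an unadjusted p of 0.05 against BSS, both coupled to inhibitory G proteins and known as presynaptic receptors. Grm2, read by 1 probe set, had values at day 7 of -0.40, -0.18 and -0.27 in BSS, -0.14, 0.28 and -0.02 in Dex and 0.09, 0.02 and -0.15 in TAA arrays. At day 30 they were 0.31, -0.09 and 0.16 in BSS, 0.22, -0.10 and 0.08 in Dex and -0.15, 0.05 and 0.04 in TAA arrays. All steroid arrays lay above the BSS arrays at day 7, and the groups overlapped at day 30. The log2 difference at day 7 was 0.32 ± 0.13 (SE) with Dex (95% interval 0.05 to 0.59, limma adjusted p = 0.9997) and 0.27 with TAA (95% interval 0.00 to 0.54, limma adjusted p = 0.991), and for TAA the day 30 effect minus the day 7 effect was -0.42 ± 0.18 (95% interval -0.80 to -0.04, limma adjusted p = 0.968). Without Dex replicate 2 the Grm2 difference with Dex at day 7 was 0.20, and with probe sets of several symbols included it was 0.19 with Dex and 0.08 with TAA.

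Grm7 values at day 7 were -0.03, 0.01 and -0.12 in BSS, 0.08, 0.16 and 0.06 in Dex and -0.28, -0.15 and -0.14 in TAA arrays. The day 30 values were 0.35, 0.15 and 0.15 in BSS, -0.02, -0.24 and 0.02 in Dex and -0.08, 0.07 and 0.03 in TAA arrays. At day 7 the Dex arrays all lay above and the TAA arrays all below the BSS arrays, and at day 30 the arrays of both steroids lay below. The Grm7 log2 difference with Dex was 0.15 ± 0.08 (SE) at day 7 (95% interval -0.03 to 0.32) and -0.30 ± 0.08 at day 30 (95% interval -0.47 to -0.12, limma adjusted p = 0.934). With TAA it was -0.14 at day 7 (95% interval -0.32 to 0.04) and -0.21 at day 30 (95% interval -0.39 to -0.03, limma adjusted p = 0.9995). The effect of Dex at day 30 minus that at day 7 was -0.44 ± 0.12 (95% interval -0.69 to -0.19, limma adjusted p = 0.9998). Over the 4 members past an unadjusted p of 0.05 in that comparison (2.72% of all genes), Grm7 and Slc17a6 lay below 0 and Grik4 and Grin2c above.

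**Figure D2:**
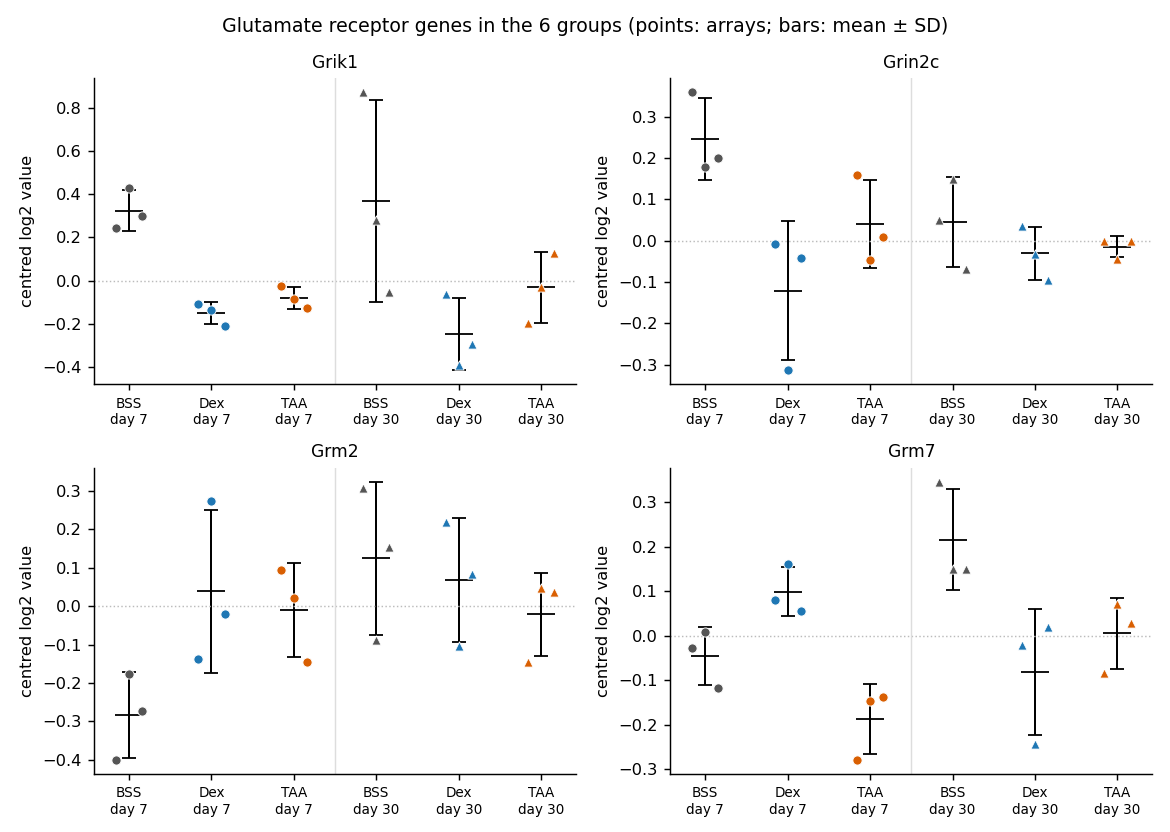
Centred log2 values (vertical axis) of Grik1, Grin2c, Grm2 and Grm7 in the 6 groups, with a point for each array and bars for the mean ± SD of 3 arrays. For Grik1 the Dex arrays lie below the BSS arrays at both days, and for Grm7 they lie above at day 7 and below at day 30.

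Probe sets of a gene did not move together in Grik1 and Grm7. Among other members given by array, the lowest correlation between probe sets was -0.54 in Slc1a3, -0.05 in Grin3a, 0.09 in Gria4 and 0.22 in Grina. It was 0.71 or more in Gria1, Gria2, Grm5 and Slc17a6. Of the 2 Grik1 probe sets, 1427676_a_at had a log2 difference of -0.94 ± 0.28 (SE) with Dex at day 7 and -0.87 at day 30, whereas 1439987_at had an unadjusted limma p above 0.05 in each comparison, and their correlation over the 18 arrays was 0.19. Of the 3 Grm7 probe sets, 1443119_at had a log2 difference of -0.97 ± 0.24 with Dex and -0.75 with TAA at day 30, the other probe sets had unadjusted limma p above 0.05 in each comparison, and the correlations ranged from -0.19 to 0.40. With the median in place of the mean of probe sets the Grm7 difference at day 30 was -0.04 with Dex and 0.0030 with TAA, and the effect of Dex at day 30 minus that at day 7 was -0.15. The Grm7 differences thus rest mainly on 1443119_at, and the Grik1 difference with Dex at day 7 on 1427676_a_at. In the other Grik1 comparisons with BSS, 1439987_at was lower on average too. With TAA at day 7 its values were -0.08, -0.14 and -0.29, against 0.05, 0.34 and -0.09 in BSS. Which transcripts the probe sets read was not tested.

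**Figure D3:**
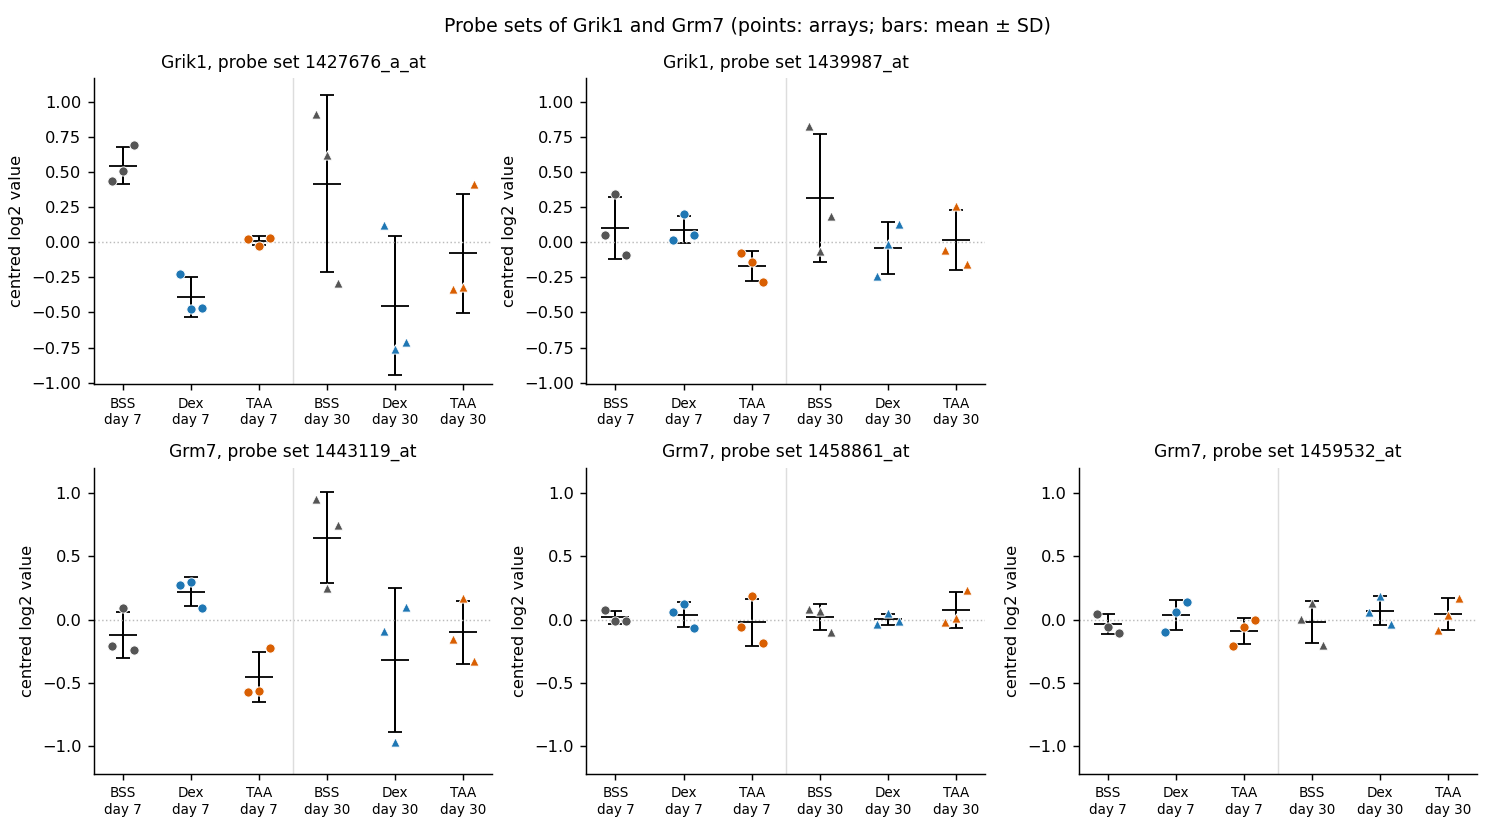
Centred log2 values (vertical axis) of the 2 Grik1 and the 3 Grm7 probe sets in the 6 groups, a point for each array. The spread between groups is larger in 1427676_a_at and 1443119_at than in the other probe sets of each gene.

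AMPA receptors, the channels of fast excitatory transmission, reached an unadjusted p of 0.05 against BSS in no comparison when all arrays were kept. The 4 subunits had a median log2 difference of -0.29 with Dex at day 30, 0 of 4 being above 0, beside a median of 0.01 over all genes. Gria1 had the widest spread of the class, with an SD of 0.92 over the 18 arrays. Its values at day 7 were 0.15, 1.09 and -0.59 in BSS, 0.53, -1.17 and -0.31 in Dex and 0.57, 0.21 and -0.13 in TAA arrays. Those of day 30 were 0.44, -2.46 and 1.12 in BSS, -0.41, 0.10 and -1.16 in Dex and -0.23, 0.08 and 1.32 in TAA arrays. The groups overlapped at both days, and BSS replicate 2 of day 30 was the lowest of all arrays. Without it all 4 subunits reached an unadjusted p of 0.05 with Dex at day 30, at -1.28 for Gria1, -1.23 for Gria2, -0.34 for Gria3 and -0.60 for Gria4, with a median of -0.92. With TAA at that day 2 of the 4 then did, and Gria1 moved from 0.69 to -0.39. The BSS arrays left, replicates 1 and 3, had rod scores of 3.04 and 2.89, against -1.06, 0.06 and 2.80 in the Dex arrays. The part of the rod score in these differences was not tested, and the share of all genes past that p was not counted.

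Among plasma membrane transporters, Slc1a3 encodes the glial carrier GLAST, and no test of it passed an unadjusted p of 0.05 when all arrays were kept. Its values at day 7 were 0.17, 0.35 and -0.36 in BSS, 0.13, -0.19 and -0.04 in Dex and 0.03, 0.01 and 0.17 in TAA arrays. For day 30 the values were 0.18, -1.56 and 0.58 in BSS, -0.34, -0.17 and -0.29 in Dex and 0.01, 0.04 and 0.06 in TAA arrays. BSS replicate 2 of day 30 again stood lowest, and all TAA arrays of that day lay above all Dex arrays. Without that array the Slc1a3 difference from BSS at day 30 moved from 0.0025 to -0.64 with Dex, past an unadjusted p of 0.05, and from 0.30 to -0.34 with TAA. The BSS arrays of day 30 then left were both of high rod score.

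Slc17a6 encodes VGLUT2, the vesicular transporter of retinal ganglion cells, and had the largest SD of the 28 genes, 1.08. Its values at day 7 were -0.33, -0.41 and -0.25 in BSS, 0.77, 1.03 and -0.29 in Dex and -0.19, -0.27 and 0.67 in TAA arrays. The arrays of day 30 gave 2.80, -0.38 and 3.07 in BSS, -0.35, 0.14 and 0.17 in Dex and 0.71, 1.78 and -0.21 in TAA arrays. BSS replicates 1 and 3 of day 30 were the highest of all arrays and replicate 2 lay below every Dex array, so the groups overlapped. The log2 difference with Dex at day 30 was -1.84 ± 0.71 (SE, 95% interval -3.36 to -0.33, limma adjusted p = 0.934), and the effect of Dex at day 30 minus that at day 7 was -2.68 (95% interval -4.82 to -0.53, limma adjusted p = 0.9998). Without BSS replicate 2 of day 30 the first was -2.95 (limma adjusted p = 0.0307), and among the 10 arrays of low rod score it was 0.28 and the second 0.23, with the sign turned in both. Those 10 arrays hold 1 BSS array of day 30, replicate 2, and 1 Dex array of day 7, so these values rest on single arrays. The BSS arrays of day 30 left without replicate 2 were both of high rod score.

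Slc17a7 encodes VGLUT1, the vesicular transporter of photoreceptors and bipolar cells, and was read by 1 probe set. At day 7 its values were 0.09, -0.08 and -0.22 in BSS, -0.12, 0.14 and -0.01 in Dex and 0.01, -0.07 and -0.07 in TAA arrays. At day 30 they were 0.78, 0.22 and 0.54 in BSS, -0.06, -0.19 and 0.32 in Dex and 0.25, 0.59 and -0.29 in TAA arrays. The groups overlapped at both days, and the log2 difference with Dex at day 30 was -0.49 ± 0.19 (SE, 95% interval -0.91 to -0.08, limma adjusted p = 0.934).

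Between the days, over 9 arrays each, 7 of the 28 genes had an unadjusted p of 0.05 or less, all higher at day 30 (6.1% of all genes were higher at that p, and 15.3% passed in either direction). They were Gria2, Gria4, Grin3a, Grina, Grm5, Grm8 and Slc17a7, and 0 members had day groups that did not overlap (0.0715% of all genes higher, 0.154% lower). The 7 became 12 without BSS replicate 2 of day 30, 4 without BSS replicate 3 of day 30 or Dex replicate 3 of day 7, and 3 without BSS replicate 1, Dex replicate 3 or TAA replicate 2 of day 30. With the rod score as a covariate the count was 2. The share of all genes was not counted in these other fits. The median log2 difference of the 28 was 0.09, with 19 above 0, against 42.7% of all genes above 0. Day of harvest also holds the age of the mice and the time since injection, which cannot be told apart.

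Grin3a encodes the glycine-binding subunit GluN3A. At day 7 its values were 0.17, -0.94 and 0.16 in BSS, -0.24, -0.46 and -0.16 in Dex and -0.39, -1.03 and -0.40 in TAA arrays. The day 30 values were -0.30, 0.48 and -0.08 in BSS, 0.43, 0.21 and 0.11 in Dex and 0.12, 0.28 and 0.28 in TAA arrays. In the Dex and TAA groups each array of day 30 lay above each array of day 7, and in BSS the days overlapped. The log2 difference was 0.54 ± 0.15 (SE, n = 9 and 9, 95% interval 0.21 to 0.87, limma adjusted p = 0.145), with 0.61 after the rod score was entered as a covariate and 0.72 among the arrays of low rod score. Its probe sets 1436575_at and 1438866_at correlated at 0.90 over the 18 arrays and differed between the days by 0.94 and 0.71, while the third, 1458378_at, had an unadjusted limma p above 0.05 for the days.

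The other 6 were smaller among arrays of low rod score. Those arrays hold 1 Dex array at day 7, and 1 BSS array (replicate 2) and 1 TAA array at day 30. The low score values of these 6 and of Grin3a thus rest in part on single arrays. The part of the rod score in the differences between the days was not tested. Gria2 encodes GluA2, the subunit that keeps AMPA channels nearly impermeable to calcium, and its values were -0.17, -0.43 and -0.20 in BSS, 0.33, 0.12 and -0.20 in Dex and -0.14, -0.23 and 0.59 in TAA arrays at day 7. Those of day 30 were 1.35, -0.11 and 1.70 in BSS, -0.16, 0.01 and 1.03 in Dex and 0.71, 0.95 and -0.20 in TAA arrays. The 5 highest Gria2 values were all from day 30, and each came from an array of high rod score. The log2 difference between the days was 0.63 ± 0.25 (SE, 95% interval 0.10 to 1.15, limma adjusted p = 0.265), 0.21 with the rod score as a covariate and 0.09 among the arrays of low rod score.

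Gria4, which encodes another AMPA subunit, GluA4, had values at day 7 of -0.07, -0.18 and -0.14 in BSS, 0.16, 0.30 and -0.18 in Dex and -0.03, -0.09 and 0.12 in TAA arrays. For day 30 the values were 0.51, -0.12 and 0.82 in BSS, -0.04, -0.11 and 0.35 in Dex and 0.24, 0.48 and 0.09 in TAA arrays. Its difference between the days was 0.26 ± 0.11 (SE, 95% interval 0.02 to 0.50, limma adjusted p = 0.303), and 0.09 both with the covariate and among arrays of low rod score. The highest values were again in BSS replicates 1 and 3 of day 30.

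Grm5, which encodes a receptor coupled to phospholipase C, had values at day 7 of -0.04, -0.12 and -0.13 in BSS, -0.01, 0.08 and -0.11 in Dex and -0.03, -0.06 and -0.09 in TAA arrays. The arrays of day 30 gave 0.33, -0.06 and 0.46 in BSS, 0.04, -0.14 and 0.36 in Dex and 0.18, 0.38 and 0.02 in TAA arrays. Its difference was 0.23 ± 0.08 (SE, 95% interval 0.06 to 0.40, limma adjusted p = 0.1996), and 0.05 among arrays of low rod score. The values above 0.1 all came from day 30 arrays of high rod score.

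Grm8, which encodes a presynaptic receptor, had the largest SD of the metabotropic class, 0.40. Its values were -0.01, -0.30 and -0.04 in BSS, 0.05, 0.05 and -0.60 in Dex and -0.26, 0.01 and 0.03 in TAA arrays at day 7. At day 30 they were 0.53, -0.19 and 0.95 in BSS, -0.02, -0.28 and 0.74 in Dex and 0.18, 0.64 and -0.20 in TAA arrays. Its difference was 0.38 ± 0.17 (SE, 95% interval 0.01 to 0.75, limma adjusted p = 0.320), and 0.10 among arrays of low rod score. The days' differences of Grina and Slc17a7 were 0.19 and 0.28 (95% intervals 0.03 to 0.35 and 0.04 to 0.52), and 0.05 and -0.02 among arrays of low rod score.

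Across the sides of the rod score, 5 of the 28 genes had no overlap between the 8 arrays of high and the 10 of low score, all with the high side higher (1.93% of all genes, with 0.0769% lower), namely Gria2, Gria4, Grm8, Slc1a2 and Slc17a6. Slc1a2, which encodes the transporter GLT-1, lay between -0.37 and -0.00 on the low side and between 0.11 and 0.93 on the high side. Gria2 lay between -0.43 and 0.01 and between 0.12 and 1.70, and Grm8 between -0.60 and 0.01 and between 0.03 and 0.95. Grik1 and Grin3a overlapped between the sides. The split was not particular to rod genes. The scores of bipolar, amacrine and ganglion, and Müller glia and astrocyte genes did not overlap between these sides either. They reached -0.0019, -0.01 and 0.03 on the low side and began at 0.25, 0.34 and 0.08 on the high side. The scores of the other marker lists overlapped. Which cell type the values of the members follow was not tested.

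**Figure D4:**
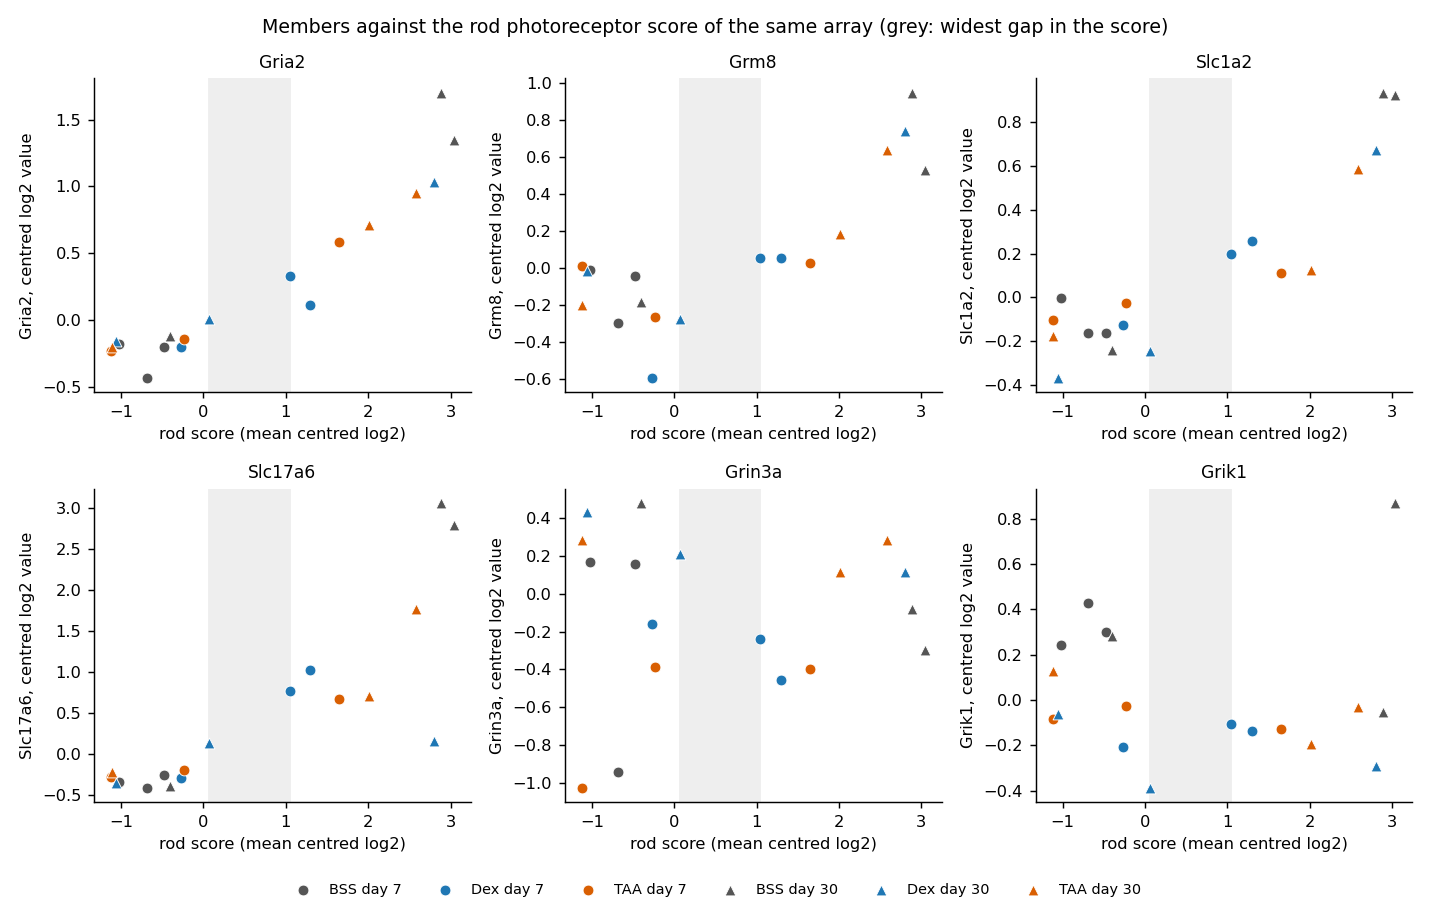
Centred log2 values (vertical axis) of Gria2, Grm8, Slc1a2, Slc17a6, Grin3a and Grik1 against the rod score (horizontal axis, mean centred log2 of 24 rod genes), a point for each of the 18 arrays. The grey band is the widest gap in the score, from 0.06 to 1.05, and the first 4 genes do not overlap across it while Grin3a and Grik1 do.

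Of 252 pairs of member and marker list examined within each side, with Benjamini-Hochberg adjustment over the 252, 1 passed on the high side and 0 on the low side. Slc17a6 followed the score of amacrine and ganglion cell genes over the 8 arrays of the high side (Pearson r = 0.97, the same rank order in both, exact permutation adjusted p = 0.00625). Without the 2 arrays farthest from the median score r was 0.92, and the adjusted p was then above the threshold. No member belonged to any of the marker lists.

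Slc1a1, which encodes the glutamate carrier EAAC1, followed the score of 13 RPE genes over the 10 arrays of low rod score (r = 0.91, rho = 0.92, permutation p = 0.0004, adjusted p = 0.0966), with r = 0.83 without the 2 farthest arrays. Over the 8 arrays of the high side r was 0.87 (exact permutation adjusted p = 0.125) and 0.08 without the 2 farthest, so the relation there rests on them. Slc1a3 followed the score of Müller glia and astrocyte genes on the low side (r = 0.94, rho = 0.65, permutation adjusted p = 0.0966), and Gria1 likewise (r = 0.90, rho = 0.73, permutation adjusted p = 0.0966). Without the 2 farthest arrays these were 0.65 and 0.57, and BSS replicate 2 of day 30 had the lowest value of that score, -0.60, beside the lowest Slc1a3 and Gria1 values. These relations passed no adjusted threshold.

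**Figure D5:**
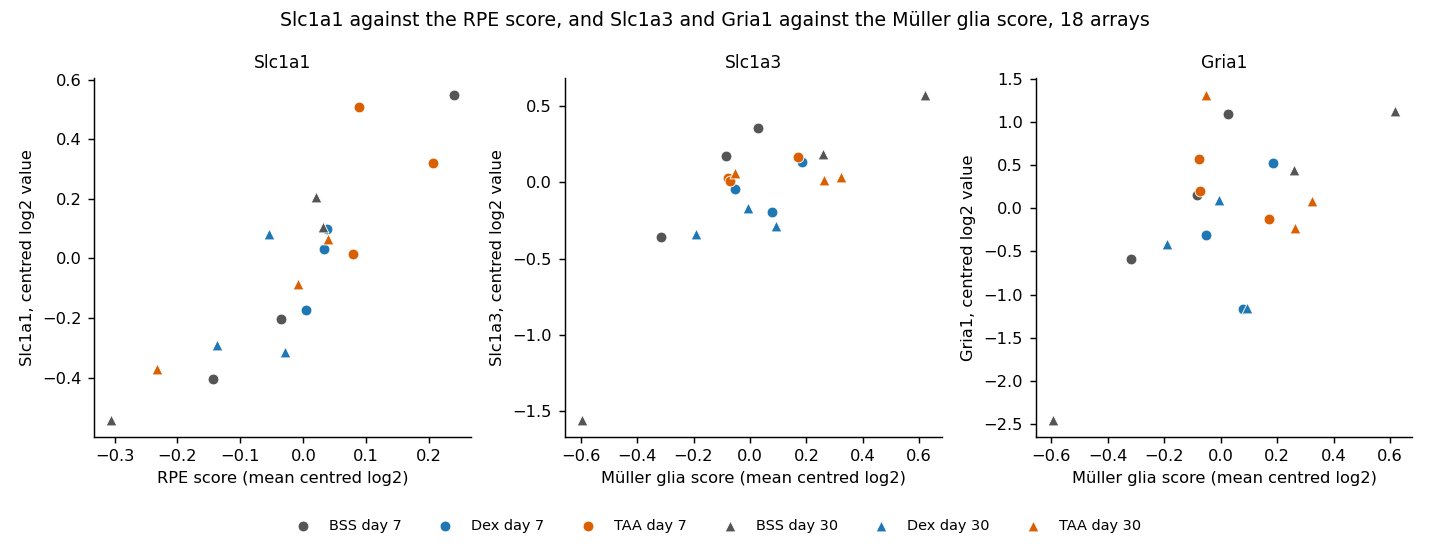
Centred log2 values (vertical axes) of Slc1a1 against the RPE score and of Slc1a3 and Gria1 against the Müller glia score (horizontal axes, mean centred log2), a point for each of the 18 arrays, coloured by treatment and shaped by day. In the panels of Slc1a3 and Gria1, BSS replicate 2 of day 30 is the point at the lower left.

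TAA and Dex were also set against each other, at doses of 25 μg and 10 μg. At day 7, 1 of the 28 genes had an unadjusted p of 0.05 or less (2.49% of all genes), and at day 30 0 had (1.62%). That gene was Grm7, with a log2 difference of TAA minus Dex of -0.29 (95% interval -0.46 to -0.11, limma adjusted p = 0.99996) and with all TAA arrays below all Dex arrays, the 1 member so placed (5.09% of all genes), and 0 members had all TAA arrays above all Dex arrays (5.67%). At day 30 the Grm7 difference was 0.09 (95% interval -0.09 to 0.26), and the difference of Grik1 was 0.07 (95% interval -0.29 to 0.43) at day 7. Slc1a3 was the 1 member with all TAA arrays above all Dex arrays at day 30 (1.82% of all genes, with 0 members below and 2.57% of all genes below), at 0.30 (95% interval -0.49 to 1.09).

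Over the 6 groups together the limma F-test gave an unadjusted p of 0.05 or less in 4 of the 28 genes (5.29% of all genes), Grik1, Grin2c, Grin3a and Grm7, with the smallest adjusted p at 0.678. The effect of TAA at day 30 minus that at day 7 was past an unadjusted p of 0.05 in 2 members (3.04% of all genes), Grik4 and Grm2. The 13 members not described by array had log2 differences from BSS between -0.12 and 0.22 with Dex and -0.14 and 0.30 with TAA at day 7, and between -0.52 and 0.10 and between -0.36 and 0.19 at day 30. None of these 13 passed an unadjusted p of 0.05 in any comparison, the smallest being 0.0641 for Grid1, a delta receptor, between the days (limma). Without BSS replicate 2 of day 30, Slc1a2 was at -0.91 with Dex and -0.75 with TAA at that day and Gria3 at -0.34 with Dex, all past that p. Grin3b was then past it with TAA at day 30, at 0.31, and Gria3, Grid1 and Slc1a2 between the days, at 0.17, 0.28 and 0.38. The BSS arrays of day 30 left in that fit were both of high rod score, and the share of all genes past that p was not counted.

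Genes around the receptors were taken from 3 lists, of glutamate supply and recycling (12 of 14 measured), auxiliary subunits and scaffolds (26 of 29) and the signalling cascade downstream of Grm6 in ON bipolar cells (11 of 12). No gene of these 49 passed an adjusted p of 0.05 in any comparison. At an unadjusted p of 0.05, 0 of the 49 passed with Dex (1.83% of all genes) and 2 with TAA (4.23%) at day 7, and 4 with Dex (4.7%) and 1 with TAA (2.57%) at day 30. Neto1, an auxiliary subunit of kainate receptors and NMDA receptors, had a log2 difference of -0.54 ± 0.21 (SE) with Dex at day 30 (95% interval -0.99 to -0.09) and -0.35 with TAA (95% interval -0.80 to 0.10). Homer1, a scaffold that binds group I metabotropic receptors, had -0.24 with Dex (95% interval -0.46 to -0.03) and -0.22 with TAA (95% interval -0.43 to -0.01) at that day. At day 7, Cacng7, an auxiliary subunit of AMPA receptors, had -0.17 with Dex (95% interval -0.34 to 0.00) and -0.18 with TAA (95% interval -0.35 to -0.01). The scaffold Shank3 had 0.28 with Dex (95% interval -0.09 to 0.64), and Glul, which encodes glutamine synthetase, had 0.29 with TAA (95% interval 0.00 to 0.58).

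TAA minus Dex passed in 1 of the 49 at day 7 (2.49% of all genes) and 2 at day 30 (1.62%). Cnih2, another AMPA auxiliary subunit, was at 0.25 (95% interval 0.03 to 0.47) and the scaffold Homer2 at -0.23 (95% interval -0.47 to 0.01) at day 7, and the glutamine carriers Slc38a5 and Slc1a5 at 0.29 and -0.21 (95% intervals 0.05 to 0.54 and -0.38 to -0.03) at day 30. Between the days 11 of the 49 passed (15.3% of all genes), 7 higher and 4 lower at day 30, and the 2 of smallest p were both lower, Slc1a5 at -0.21 ± 0.05 (SE, 95% interval -0.31 to -0.10, limma adjusted p = 0.0767) and the glutamine carrier Slc38a2 at -0.21 (95% interval -0.37 to -0.05). All 11 measured genes of the Grm6 cascade lay above 0 for the days, with a median log2 difference of 0.39, and 1 of 11 lay above 0 with Dex at day 30, with a median of -0.58. The rod genes had medians of 1.33 and -1.25 in the same comparisons, with 23 and 0 of 24 above 0, and the part of retinal RNA in the cascade's values was not tested.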

How the data were processed

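RNA of 18 RPE/choroid samples (RIN of at least 7) was hybridised to 18 mouse expression arrays. The authors summarised probe intensities with RMA and deposited log2 values centred on each probe set's median over all samples; the labelling kit is given differently in the labels and the methods. Of 45101 probe sets, 34958 named 1 gene, 932 several and 9211 none in the platform annotation; those with 1 were averaged into 18194 genes. The 6 groups were fitted together in limma 3.58.1 (R 4.3.3), with Benjamini-Hochberg adjustment over all genes, and the fit was tested on simulated data. Marker relations used permutation tests (SciPy 1.17.1; exact for 8 arrays, 100000 resamples otherwise). Members and lists were chosen with earlier results of these data known. Values by array are given for members with an unadjusted p of 0.05 or less, for receptors the study names, and for the member of largest SD in each class of 2 or more members; of the lists, the 2 genes of smallest p per comparison are named. Replicates are labelled as biological, with number of animals per array not stated. Same-numbered arrays of different groups did not deviate together (median r = -0.06 over all 45 pairs, -0.75 to 0.61). Other pairs had a median r of 0.06 (90 pairs, -0.68 to 0.80). With so wide a spread this check cannot exclude a pairing or batch by replicate number, and the arrays were fitted as unpaired. Depth has no counterpart here, and the number of arrays limits precision. Alternatives covered scaling, probe set choice, array weights, covariates, the methods' t-test and omission of each array.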

Additional observations from a re-analysis of the deposited data

Results flagged for a closer look

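The difference of Grm7 between Dex and BSS had opposite signs at the 2 days, with a day 7 interval (-0.03 to 0.32) that includes 0. All 3 Dex arrays lay above the BSS arrays at day 7 and all 3 below at day 30, and the difference of the effects was -0.44 on the log2 scale (95% interval -0.69 to -0.19, limma adjusted p = 0.9998). Of the 3 probe sets of the gene, 1443119_at carried it, at -1.31. With the median of probe sets the difference of the effects was -0.15 and the day 30 difference -0.04.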

How the results depend on the processing

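Of 33 alternatives, 18 left out 1 array each. The count of members past the adjusted p of 0.05 in limma was 0 in each comparison, and moved as follows. For Dex at day 30 it ranged from 0 to 1 when arrays were left out, with 1 (Slc17a6) without BSS replicate 2 of day 30. Between the days it ranged from 0 to 4, with 4 (Gria2, Gria4, Grm5 and Slc17a6) without that array, and was 4 with array weights (Gria2, Grina, Grm5 and Slc17a7). In the fit with the replicate number as a block 0 members passed in every comparison. The count of pairs of member and marker list on the high rod side was 0 without the 2 farthest arrays. The cause of these shifts was not tested.

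Over 27 values, those of members past an unadjusted p of 0.05, the sign turned in 4 cases. With only arrays of low rod score, an alternative chosen after seeing the data, Slc17a6 with Dex at day 30 was 0.28, its effect of Dex between days 0.23, and Slc17a7 between the days -0.025. With the median of probe sets, Grm7 with TAA at day 30 was 0.0030. In the low score fit 3 groups kept 1 array each, assumed to vary like the other groups. Of 486 fits of these 27 values with an array left out, 397 kept an unadjusted p of 0.05 or less, and 8 of the 27 kept it in all 18. The fewest were 6 of 18, for Grm8 between the days. Over all 28 members and 9 comparisons, 18 of 252 signs turned without BSS replicate 2 of day 30, Gria1 and Slc1a3 among them.

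Counts at an unadjusted p of 0.05 moved more widely over all alternatives: from 2 to 5 (3 as reported) with Dex and 0 to 5 (3) with TAA at day 7, 1 to 11 (5) with Dex and 0 to 8 (2) with TAA at day 30, 1 to 2 (1) and 0 to 3 (0) for TAA against Dex, 1 to 14 (7) between the days, 1 to 10 (4) and 0 to 7 (2) for the effects of Dex and TAA between the days, and 3 to 13 (4) in the F-test. The methods' t-test gave 1 with Dex and 1 with TAA at day 30. The share of all genes at that p was not counted in the alternatives, so these counts of members have none beside them.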
